A study of Mus musculus with 10 samples.

Results

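AMP-activated protein kinase (AMPK), the kinase that senses a fall in cellular energy, was followed here through 10 genes chosen by symbol, namely the 7 genes of its subunits, 2 genes of kinases that activate it and the gene of 1 substrate, out of 21098 genes with counted segments. Gastrocnemius (GAS) muscle was taken from male wild-type C57BL/6J mice with diet-induced obesity (DIO), which had been put on a high-fat diet (HFD) at 9 weeks of age and kept on it for 9 weeks before treatment. Per the methods, both groups stayed on the HFD during treatment. The animals then received weekly subcutaneous injections over 14 weeks, either saline (CTRL, 5 mice) or 10 mg/kg of an antisense oligonucleotide against miR-22 (ASO, 5 mice), and the labels give their age at dissection as 30 weeks, less than these periods add up to. The ASO was injected under the skin and not into the muscle, and GAS was sequenced as bulk tissue, in which fewer cells of a type and less RNA per cell cannot be told apart. Stranded mRNA libraries were counted by the authors as read pairs on segments of at most 500 bp that end the 3′UTRs of annotated transcripts. The libraries held 1606909 to 2116720 counts in CTRL and 2239186 to 2632560 with the ASO, so that the treated libraries were all the deeper ones. Neither miR-22 nor its host gene Mir22hg was among the counted genes, and the labels were not checked against the target of the ASO. The comparison asked whether the transcripts of the AMPK complex differed between treated and control muscle.

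AMPK works as a complex of a catalytic α subunit, a scaffolding β subunit and a regulatory γ subunit that binds AMP, ADP and ATP. Each subunit exists in several isoforms made by different genes, and skeletal muscle is known for α2, β2 and the muscle-restricted γ3. LKB1 (Stk11) and CaMKK2 (Camkk2) phosphorylate the α subunit, and active AMPK phosphorylates acetyl-CoA carboxylase 2 (Acacb), the enzyme that makes the malonyl-CoA by which fatty acid entry into mitochondria is held back.

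The ASO is directed at miR-22, and the sequences below show the microRNA, from RefSeq (GRCm38.p6, chr11:75463772-75463793, plus strand), beside the places where its target motif occurs in the annotated 3′UTRs of the members. Capitals mark the seed of the microRNA, bases 2 to 8, and the complementary heptamer GGCAGCT in the transcripts, which were searched on the transcript strand only.
mmu-miR-22-3p: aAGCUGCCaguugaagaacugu
Prkag2 (GRCm39, chr5:25139008-25139014, minus strand): agcacccacatGGCAGCTcacaaccatctt
Camkk2 (GRCm39, chr5:122873152-122873158, minus strand): ccgcaccagtcGGCAGCTttgagggcagac
The coordinates of both transcripts are those of the heptamer. These were the 2 members of 10 with a match, and over all genes 3508 of 20969 longest 3′UTRs held one (16.7%). The Prkag2 heptamer lies 181 bp from the end of a 1550 bp 3′UTR of a single annotated transcript, and that of Camkk2 lies 1885 bp from the end of a 3502 bp 3′UTR. Neither lies in a segment on which reads were counted, and a match of letters does not show that a site is used.

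How well each member could be counted depended on its annotation. A read pair on bases shared by segments of 2 transcripts was not assigned to either, so that a gene whose transcripts end within a few bases of each other keeps almost no countable bases. Prkaa1, the gene of the α1 subunit, has 2 segments with 7 unshared bases each and drew 7 counts over the 10 libraries, with at most 1 in a CTRL and 2 in a treated library. Prkag2, of the γ2 subunit, has 0 to 4 unshared bases per segment and no count in any library, and Stk11, of which 1 base is unshared, had 3 counts. None of these 3 passed the filter on low counts, and their low values give no information on their expression. The other 7 members passed it.

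Of these 7 members, 1 was lower with the ASO and 0 were higher at an adjusted p-value under 0.05, where over all 7819 rows tested 17.5% were lower and 11.7% higher. That balance depended on the scaling, with 1365 rows lower and 916 higher under TMM, 1821 and 528 under total counts, and 1207 and 1261 under upper quartile scaling. The member that was lower was Prkab1, the gene of the β1 subunit. Prkaa2, Prkab2, Prkag1, Prkag3, Camkk2 and Acacb did not pass the test (quasi-likelihood F-test in edgeR, adjusted by Benjamini-Hochberg over all rows), in any of the up to 20 other settings that gave each a value. The median log2 fold change of the 7 was 0.01 and that of all rows was −0.03.

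**Figure D1:**
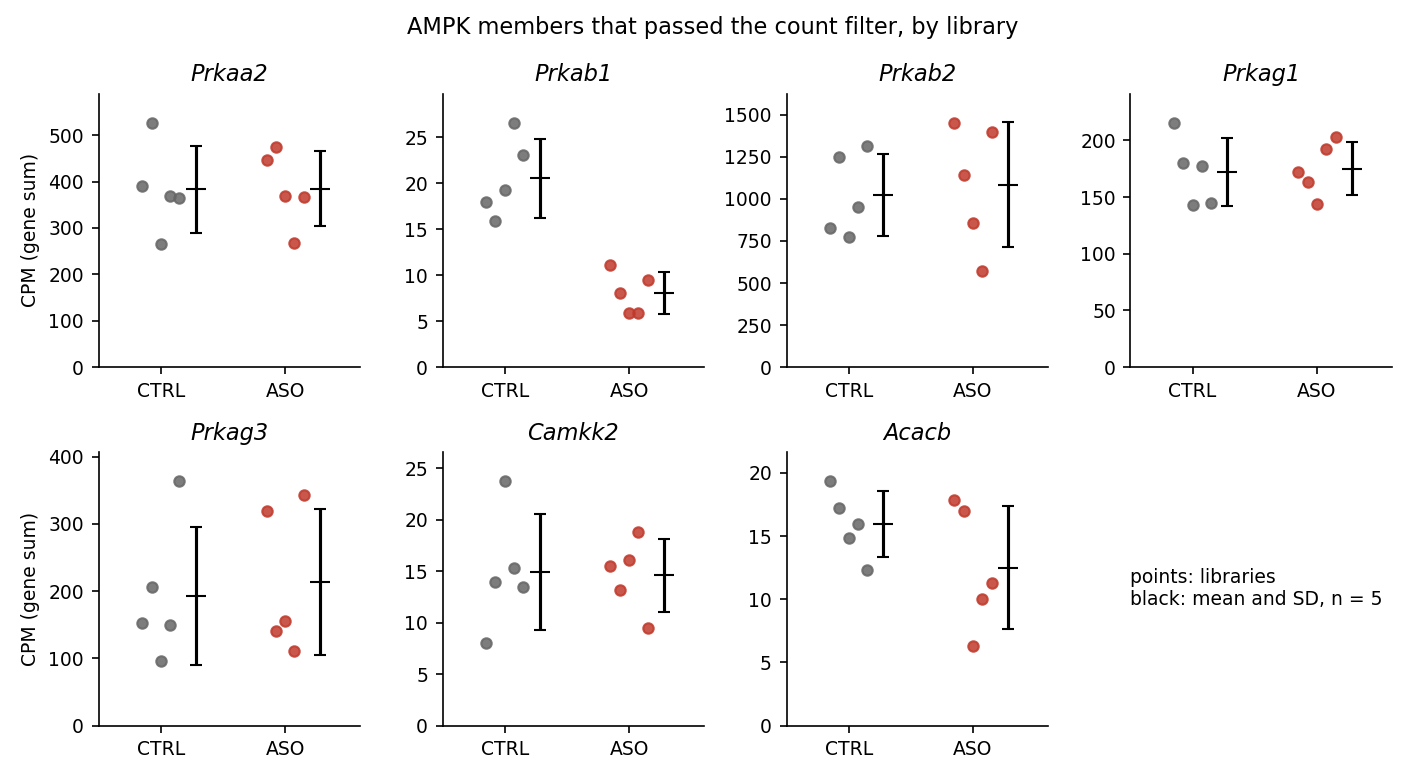
Normalised counts (CPM, linear axes from 0) of the 7 AMPK members that passed the count filter, with 1 point per library and the mean and SD of the 5 libraries of each group in black. The 5 ASO values of Prkab1 lie below the 5 CTRL values, whereas the groups overlap for the other 6 genes.

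Prkaa2 encodes the α2 catalytic subunit and was counted on a single segment with no shared base (4:104887071–104887570, minus strand, GRCm39, 3′UTR). Its level was 390, 526, 266, 368 and 364 CPM in CTRL replicates 1 to 5, and 447, 475, 368, 267 and 366 CPM in ASO replicates 1 to 5. The lowest values of both groups, CTRL replicate 3 and ASO replicate 4, were almost the same and the groups overlapped throughout. The means were 383 ± 93.5 CPM in CTRL and 385 ± 81.5 CPM with the ASO (SD over 5 mice per group), and the log2 fold change was 0.01 (standard error 0.20, 95% interval −0.42 to 0.44, adjusted p = 0.98 from edgeR with Benjamini-Hochberg adjustment). A change of Prkaa2 RNA beyond that interval, either way, was therefore not seen under TMM scaling, while a smaller one was not detectable with this spread. The genes whose levels most resembled those of Prkaa2 within the groups were Spryd7, Aen and Ptp4a2, with Pearson's r of 0.95, 0.94 and 0.93 over the 10 libraries after the group means were removed. These were the 3 highest of 7819 rows and are given as a description.

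Prkag1, the gene of the γ1 subunit, was likewise read from a single unshared segment (15:98710678–98711177, minus strand, 3′UTR). CTRL replicates 1 to 5 had 216, 180, 143, 178 and 145 CPM and ASO replicates 1 to 5 had 172, 164, 144, 192 and 203 CPM. Both groups covered nearly the same range. With 172 ± 29.8 against 175 ± 23.3 CPM (SD over 5 mice per group), the log2 fold change was 0.02 (standard error 0.15, 95% interval −0.30 to 0.35, adjusted p = 0.93 from edgeR). The direction of these near-zero values has no meaning, as it turned with the scaling for both genes, to −0.17 for Prkaa2 and −0.15 for Prkag1 when libraries were scaled by total counts.

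Prkag3 encodes γ3, the subunit found in glycolytic muscle. Its annotated 3′ ends are shared in full between pairs of transcripts and held no count, and the gene was read only from segments of 2 transcripts marked for nonsense-mediated decay, 2545 and 8596 bp upstream of its end (1:74780626–74781125 and 1:74786677–74787176, minus strand). In these, 38 and 187 bp of 500 are coding exon and the rest is intron, so the values are not those of the usual 3′ end. The gene sum ranged from 95.8 to 363 CPM in CTRL (median 153) and from 111 to 343 CPM with the ASO (median 156). CTRL replicate 5, ASO replicate 1 and ASO replicate 5 were high and the remaining libraries low, and the groups overlapped. The log2 fold change of 0.15 (standard error 0.38, 95% interval −0.68 to 0.98, adjusted p = 0.80 from edgeR) lay well within this spread. Fitted as a single segment, the one at 2545 bp was at 0.58 (adjusted p = 0.23 from edgeR). The one at 8596 bp was at −0.25 (adjusted p = 0.63 from edgeR).

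On gene sums, Prkab1 was the only 1 of the 7 tested members to pass the test, where 17.5% of all rows tested were lower. It drew 38, 34, 39, 45 and 41 counts in CTRL replicates 1 to 5 and 23, 19, 14, 14 and 20 counts in ASO replicates 1 to 5, although the treated libraries were deeper. Normalised, every treated library lay below every control, a pattern shown by 13.4% of all rows tested. CTRL had 20.5 ± 4.26 CPM and the ASO group 8.07 ± 2.27 CPM (SD over 5 mice per group), so that Prkab1 was 2.53-fold lower, at −1.34 on the log2 scale (standard error 0.25, 95% interval −1.87 to −0.81, adjusted p = 0.0021 from edgeR with Benjamini-Hochberg adjustment). The two-sided exact permutation test over the 252 labellings gave p = 0.0079, the smallest that 5 against 5 allow. Where these reads lie limits the result. The 2 segments at the 3′ end of Prkab1 share all but 4 bases and held 1.39% of its counts. The rest came from segments of 2 transcripts marked for nonsense-mediated decay, 849 and 1064 bp upstream (5:116152494–116152993 with 70.4% and 5:116152709–116153208 with 28.2% of the counts, minus strand). In full, these segments hold 3′UTR, coding exon and, for 187 and 354 bp, intron, but they overlap each other. The 215 unshared bases of the segment at 849 bp all lie in the 3′UTR of the main transcript. Those of the segment at 1064 bp are coding exon and intron. The decrease is thus one of reads upstream of the end of the gene, and the level at the end itself was not measured.

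Prkab2, the gene of the muscle isoform β2, was the most abundant member on the counted 3′ ends, and its segments differed in direction, as those of Prkag3 did. As a sum, it had 830, 1247, 775, 955 and 1314 CPM in CTRL replicates 1 to 5 and 1452, 1144, 855, 570 and 1397 CPM in ASO replicates 1 to 5. The groups overlapped, the lowest value being that of ASO replicate 4. From 1024 ± 244 to 1084 ± 372 CPM (SD over 5 mice per group), the log2 fold change was 0.08 (standard error 0.25, 95% interval −0.47 to 0.63, adjusted p = 0.83 from edgeR). The sum is made of 3 segments on the plus strand of chromosome 3, all within the 3′UTR of the main transcript. The distal one (3:97580629–97581128) ends the gene and held 82.8% of the counts, whereas the others lie 2879 and 3013 bp upstream (3:97577750–97578249 and 3:97577616–97578115), end transcripts marked for nonsense-mediated decay and have 134 unshared bases each.

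Each segment was next fitted on its own, over 10652 segments that passed the filter, an analysis chosen after seeing the data, with levels given in CPM of the same library sizes as the gene sums. The upstream segments of Prkab2 were lower with the ASO in every library. At 2879 bp, the 5 CTRL libraries had 83.9, 120, 123, 169 and 290 CPM and the 5 treated ones 29.9, 31.9, 11.4, 14.6 and 22.2 CPM. At 3013 bp, these values were 114, 155, 133, 219 and 337 CPM in CTRL and 35.7, 26.8, 10.6, 11.3 and 23.1 CPM with the ASO. The highest treated value was below the lowest control on both segments. Log2 fold changes were −2.81 (standard error 0.36, adjusted p = 1.1e-04) and −3.13 (standard error 0.38, adjusted p = 7.9e-05, both from edgeR with Benjamini-Hochberg adjustment), which is 7.00-fold and 8.76-fold lower. Of all segments tested, 24.7% were lower and 16.0% higher at the same threshold (2628 and 1701 segments, and 3165 and 779 with total counts), and in 19.2% every treated library lay below every control.

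The distal segment of Prkab2 moved the other way, with less certainty. CTRL replicates 1 to 5 had 632, 972, 518, 566 and 687 CPM there, and ASO replicates 1 to 5 had 1387, 1086, 833, 544 and 1352 CPM. Of the treated libraries, replicates 1, 2 and 5 were above every control, replicate 3 was above 4 of them, and replicate 4 was below 4 of them, so that the groups overlapped. The mean went from 675 ± 178 to 1040 ± 357 CPM (SD over 5 mice per group), and this log2 difference of 0.66 (standard error 0.25) barely passed, with an adjusted p of 0.0496 from edgeR. An exact permutation test of the same libraries, two-sided, gave p = 0.095. Without any 1 of 7 libraries, namely CTRL replicate 1, 3, 4 or 5 or ASO replicate 1, 2 or 5, the adjusted p was between 0.062 and 0.11 from edgeR, so the increase of the distal segment is not secure. In a fit of the most distal segments alone, scaled on those segments, it was at 0.39 with an adjusted p of 0.33 from edgeR.

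Within Prkab2, the share of counts on upstream segments had a median of 33.1% in CTRL and 4.52% with the ASO. It ranged from 22.1 to 47.7% over the 5 CTRL libraries and from 2.57 to 5.12% over the 5 treated ones, and there was no overlap. Being a ratio within a library, the share does not depend on how libraries are scaled to each other. An AATAAA or ATTAAA hexamer, the letters of the usual poly(A) signals, searched on the transcript strand, was found in the last 50 bases of the distal segment (AATAAA) and in neither upstream segment, and 60.4% of all 52361 segments had one. No such hexamer was found in the counted upstream segments of Prkab1 and Prkag3 either. The counted ends of Prkaa2 and Camkk2 hold AATAAA and that of Prkag1 holds ATTAAA. The Acacb segment that drew counts has AATAAA near its end, but its 6 unshared bases lie at its upstream edge, so that end was not counted.

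**Figure D2:**
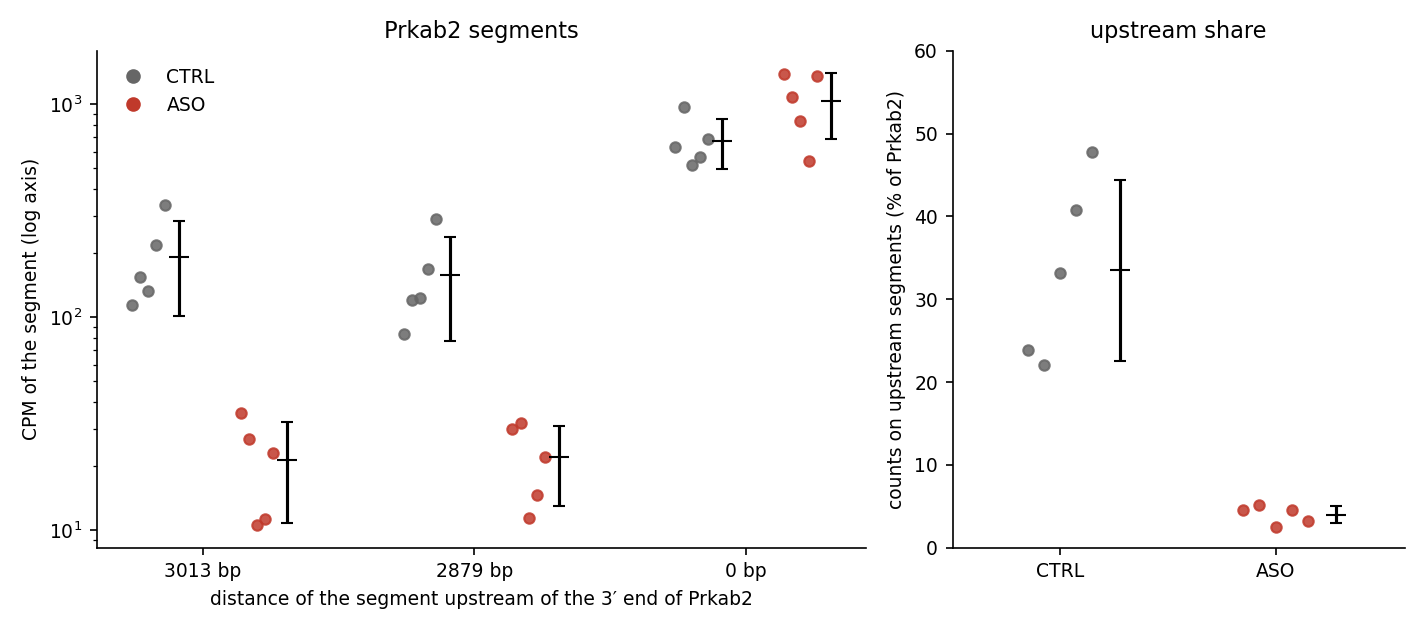
Left, CPM (log axis) of the 3 segments of Prkab2 by their distance upstream of its 3′ end, with 1 point per library and mean and SD of 5 libraries in black. Right, the share of Prkab2 counts that fell on the upstream segments, from 22.1 to 47.7% in CTRL and from 2.57 to 5.12% with the ASO.

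Because many genes shifted in this direction, Prkab2 was read against all genes with both kinds of segment. The log2 ratio of the counts of a gene's most distal segment over the counts lying at least 1000 bp upstream could be formed for 1774 genes, among them Prkab2, Prkag3 and Camkk2. Over these genes the median shift between the groups was 1.28 toward the distal segment, 65.1% were shifted that way at an adjusted p under 0.05 in limma, and in 48.3% every treated library lay above every control. For Prkab2 the log2 ratio averaged 1.04 ± 0.72 over the CTRL libraries and 4.62 ± 0.42 over the treated ones (SD over 5 mice per group). Its shift of 3.59 (standard error 0.37, adjusted p = 2.0e-05 from limma with Benjamini-Hochberg adjustment) ranked 54 of 1774, above the 95th percentile of 3.28. Prkag3, whose most distal counted segment is itself upstream of its end, shifted by 0.74 (adjusted p = 0.035 from limma, rank 1224), less than the median gene. That call was lost when any of CTRL replicates 2, 4 and 5 and ASO replicates 1, 4 and 5 was left out (adjusted p 0.052 to 0.098 from limma). For Camkk2 the value was 1.05 (adjusted p = 0.12 from limma, rank 1047), with between 1 and 17 upstream counts per library, and 1.49 without CTRL replicate 1, where it passed (adjusted p = 0.019 from limma). A shift toward the distal end as such was thus not particular to Prkab2, though its size was at the upper end. Beside these values, the median ratio over genes differed between all libraries of the 2 groups, from −0.48 to 0.49 in CTRL and from 1.17 to 1.61 with the ASO, and the part of this series-wide shift in the values of Prkab1 and Prkab2 was not tested.

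**Figure D3:**
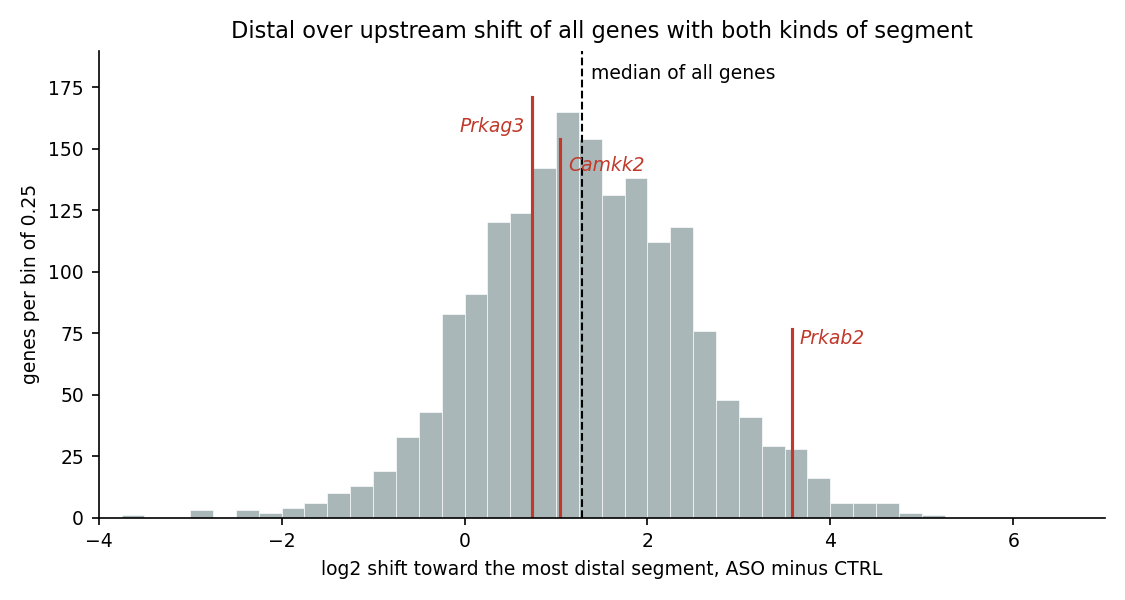
Number of genes (bins of 0.25) by their log2 shift toward the most distal segment, ASO minus CTRL, over 1774 genes. The dashed line is the median of all genes, 1.28, and red lines mark Prkag3 (0.74), Camkk2 (1.05) and Prkab2 (3.59), which stands in the right tail.

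On 500 bp windows without shared bases, levels of different genes can be set side by side per equal length. In CPM on these windows, Prkab2 was above Prkaa2 in each of the 10 libraries, Prkaa2 was above Prkag1 in each, and Camkk2 was lowest, with 7.55 to 14.8 CPM in CTRL and 7.07 to 17.5 CPM with the ASO. The ratio of Prkab2 to Prkaa2, the β2 and α2 subunits, averaged 1.77 ± 0.18 over CTRL and 2.68 ± 0.70 over treated libraries (SD over 5 mice per group). It lay between 1.54 and 1.95 in CTRL and between 2.04 and 3.69 with the ASO, without overlap, a 1.48-fold difference (two-sided exact permutation test of log2 ratios, p = 0.0079, 0.016 after Benjamini-Hochberg adjustment over 4 ratios). The window of Prkab2 is its distal segment, whose share of the counts of the gene was larger with the ASO. On gene sums, the log2 fold changes were 0.08 for Prkab2 and 0.01 for Prkaa2, and this ratio was not tested on them. The ratio of Prkag1 to Prkaa2 averaged 0.46 ± 0.09 over CTRL and 0.48 ± 0.16 over treated libraries (SD over 5 mice per group; exact permutation p = 0.94). Both ratios were added after the data were seen, because 2 of 4 ratios set for the analysis, Prkaa2 to Prkaa1 and Prkag1 to Prkag2, had denominators too low to form them.

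The other ratios used gene sums. Prkab2 to Prkab1, the exchange of β isoforms, gave 46.3, 78.7, 40.2, 36.0 and 57.1 in CTRL replicates 1 to 5 and 131, 142, 144, 97.5 and 148 in ASO replicates 1 to 5. Every treated library was higher. The difference, 1.38 on the log2 scale, had an exact permutation p of 0.0079 (0.016 after Benjamini-Hochberg adjustment over 4 ratios) and came mostly from the fall of Prkab1, whose reads lie on other kinds of segment than those of Prkab2, so the ratio is no measure of how many β2 transcripts there were per β1 transcript. The ratio of Prkag3 to Prkag1 was between 0.67 and 2.51 in CTRL and between 0.58 and 1.86 with the ASO, with an exact permutation p of 0.83.

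Of the partners, Camkk2 drew from 17 to 48 counts in the CTRL libraries and from 20 to 45 in the treated ones, 78.8% of them at its 3′ end (5:122869233–122869732, minus strand). At 14.9 ± 5.66 against 14.6 ± 3.51 CPM (SD over 5 mice per group), its log2 fold change was −0.03 (standard error 0.29, 95% interval −0.65 to 0.59, adjusted p = 0.95 from edgeR). CTRL replicate 3 was highest and CTRL replicate 1 lowest, with the treated libraries between them. On the 3′ end alone the log2 fold change was 0.29 (standard error 0.28, adjusted p = 0.44 from edgeR).

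Acacb had 41, 37, 30, 27 and 22 counts in CTRL replicates 1 to 5 and 37, 40, 15, 24 and 24 in ASO replicates 1 to 5. All fell on 1 of its 2 segments (5:114388317–114388816, plus strand, 3′UTR), which has 6 unshared bases at its upstream edge. The values below are those of reads on these 6 bases, and the level at the end of the gene itself was not measured. The level was 15.9 ± 2.62 CPM in CTRL and 12.5 ± 4.86 CPM with the ASO (SD over 5 mice per group), and 3 treated libraries lay below every control while replicates 1 and 2 lay among the controls. With a log2 fold change of −0.35 (standard error 0.28, 95% interval −0.96 to 0.25, adjusted p = 0.36 from edgeR), the difference was within the spread between libraries, and without ASO replicate 3 it was −0.15. Trim35, Spg7 and Spr resembled Acacb most within the groups (Pearson's r of 0.95, 0.93 and 0.92 over 10 libraries, as a description), at a depth of about 30 counts per library for Acacb.

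Around these members, 4 lists of 70 AMPK pathway genes held 50 genes that passed the filter. With the ASO, 6 of the 50 were higher and 12 lower, beside the 11.7% and 17.5% of all rows, and their median log2 fold change was −0.01. The lists were described by such counts, and no list was tested as a whole.

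Among 22 genes that act on AMPK, 15 were tested, 2 were higher and 1 was lower. Ampd1, the AMP deaminase of muscle, which removes AMP, rose from 1315 ± 328 to 2582 ± 709 CPM (SD over 5 mice per group; log2 fold change 0.97, adjusted p = 0.0071 from edgeR). Ube2o, a ubiquitin ligase that acts on the α2 subunit, rose from 40.3 ± 6.75 to 64.1 ± 11.6 CPM (SD over 5 mice per group; log2 fold change 0.67, adjusted p = 0.0094 from edgeR). For both genes the groups overlapped, with CTRL up to 1777 and ASO from 1727 CPM for Ampd1, and 51.4 and 50.7 CPM for Ube2o. On the most distal counted segments alone, with libraries scaled on those segments, the log2 fold change of Ube2o was 0.42 and did not pass (adjusted p = 0.084 from edgeR). All counts of Ube2o lie at its 3′ end, so for this gene that fit differs in scaling and rows fitted, not in position. Adipor2, an adiponectin receptor, was lower with −0.60 (adjusted p = 0.046) on its sum and −0.06 on its most distal segment (adjusted p = 0.87, both from edgeR). The call on the sum was also lost with RLE and upper quartile scaling, without the filter, and when any of CTRL replicates 3, 4 and 5 and ASO replicates 1, 3, 4 and 5 was left out, down to −0.41 without CTRL replicate 3. Of the 12 kinases related to AMPK, 6 were tested and 1 was lower, Mark3, at −0.77 (standard error 0.15, adjusted p = 0.0027 from edgeR), with no overlap between the groups.

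Of 26 substrates and effectors, 22 were tested, with 4 higher and 7 lower and a median of −0.10. Leaving out ASO replicate 4 gave a median of −0.27 and leaving out ASO replicate 1 gave −0.018, and it turned to 0.11 on most distal segments. Rptor, the raptor subunit of mTORC1, fell from 43.2 ± 14.0 to 3.83 ± 1.59 CPM (SD over 5 mice per group; log2 fold change −3.46, adjusted p = 1.1e-04 from edgeR). Its treated libraries held only 1.89 to 5.52 CPM, where 3 counts in the shallowest library are 1.87 CPM. Rptor had no value in the setting that asked for at least 10 counts in every library. Tbc1d4, a brake on glucose transporter traffic, fell from 76.2 ± 10.8 to 16.2 ± 3.19 CPM (SD over 5 mice per group; log2 fold change −2.23, adjusted p = 7.6e-05 from edgeR). Tsc1 and Tsc2, which together restrain mTORC1, had log2 fold changes of −2.07 and −1.62. These genes were counted far from their 3′ ends, since 99.3% of the Rptor, 97.1% of the Tbc1d4, 84.0% of the Tsc2 and all of the Tsc1 counts lie on segments at least 1000 bp upstream. Mff, a receptor for the mitochondrial fission machinery, was at −1.05 with its counts 236 bp from the end. Gys1, the muscle glycogen synthase, was lower on its sum, from 2338 ± 362 to 1351 ± 170 CPM (SD over 5 mice per group; log2 fold change −0.79, adjusted p = 0.0028 from edgeR), while on its most distal segment it was at −0.18 and not past the threshold (adjusted p = 0.44 from edgeR). Ulk2, a kinase that starts autophagy, and Hdac5, a histone deacetylase, were higher, both with log2 fold changes of 0.79. Ulk2 was read at its 3′ end, whereas 99.8% of the Hdac5 counts lie 1317 bp upstream.

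In the branch of malonyl-CoA and fatty acid entry, 7 of 11 genes were tested, 3 were lower and 0 higher, with a median of −0.61 that was −0.28 without CTRL replicate 3. Cpt1b, the muscle carnitine palmitoyltransferase that malonyl-CoA inhibits, went from 802 ± 272 to 528 ± 58.9 CPM (SD over 5 mice per group; log2 fold change −0.60, adjusted p = 0.043 from edgeR). Cd36, a fatty acid transporter, was at −0.88 (adjusted p = 0.029), and Hlcs, which attaches biotin to carboxylases, at −0.61 (adjusted p = 0.022, both from edgeR). The groups overlapped for all 3 genes, and none of these calls was secure. All Cpt1b counts lie on a segment 2360 bp upstream. Its call was lost with limma-voom, RLE, upper quartile scaling and no filter. The call was also lost when any of CTRL replicates 1, 4 and 5 and ASO replicates 1, 2, 3 and 5 was left out, with −0.39 without CTRL replicate 1. With most distal counted segments fitted alone and scaled on those segments, Cpt1b was at −0.85 and passed (adjusted p = 0.015 from edgeR), on the same counts. Cd36 was at −0.49 on its most distal segment (adjusted p = 0.24 from edgeR) and lost its call when any of CTRL replicates 1 and 3 and ASO replicates 1, 2 and 5 was left out (adjusted p 0.063 to 0.077 from edgeR). Hlcs lost it when any of CTRL replicates 3 and 4 and ASO replicates 1 and 3 was left out (adjusted p 0.0501 to 0.062 from edgeR). Cd36 is made by fat cells, endothelium and macrophages as well as by muscle.

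**Figure D4:**
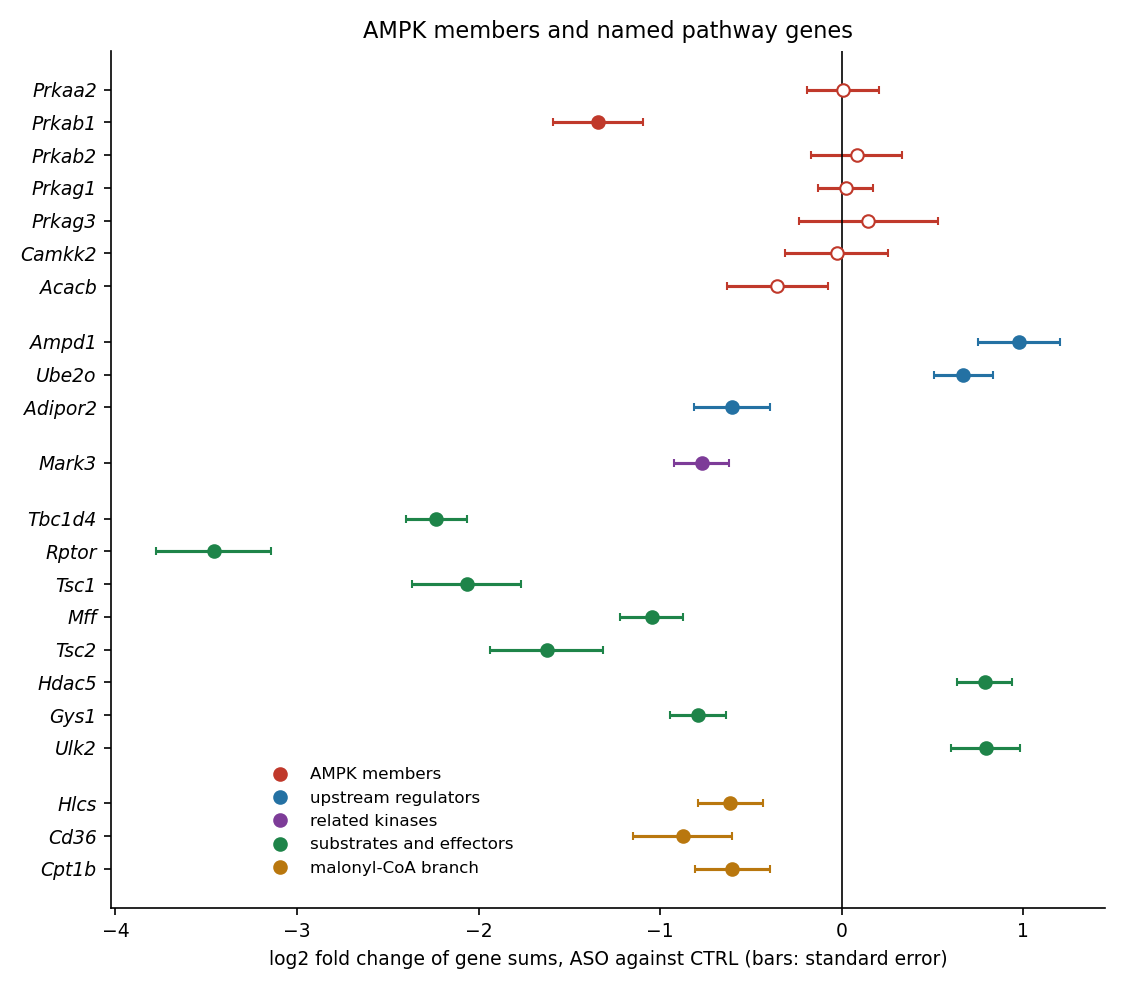
Log2 fold changes of gene sums, ASO against CTRL, with standard errors, for the 7 AMPK members and the pathway genes named by list. Filled points passed the adjusted threshold of 0.05 and open points did not; of the members, Prkab1 at −1.34 is filled, and Rptor at −3.46 lies farthest from 0.

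The tissue label was checked against muscle genes. Of 6 defining genes of muscle, 4 were tested and 2 were higher with the ASO, and their summed level was 45846 to 85143 CPM in CTRL and 91759 to 136314 CPM with the ASO, without overlap, with Myot at 0 throughout. Of 10 fast fiber genes, 6 were tested and 4 were higher, at 17453 to 33948 CPM in CTRL and 32759 to 73510 CPM with the ASO, with Tnnt3 at 0. Over all rows 11.7% were higher, the remaining tested genes of these lists did not pass, and the summed levels were not tested. The share of rows in which every treated library lay above every control was not computed. Of 9 slow fiber genes, 6 were tested and 1 was higher, and libraries ranged from 79.7 to 2025 CPM in CTRL and from 53.5 to 6112 CPM with the ASO, with Tnnt1 at 0. Summed adipocyte genes (6 of 8 tested, 0 called, Plin4 at 0) had 846 to 13740 CPM in CTRL and 720 to 3758 CPM with the ASO, and those of macrophages (5 of 8 tested, 1 lower, Adgre1 and Cd163 at 0) 232 to 1414 and 70.7 to 532 CPM. Fibroblast genes (4 of 6 tested, 1 lower, Dcn at 0) had 374 to 1680 CPM in CTRL and 140 to 613 CPM with the ASO. For these 3 cell types the groups overlapped, with the highest library in CTRL. Endothelial genes (6 of 8 tested, 0 called) lay at 169 to 294 and 161 to 366 CPM, and Schwann cell genes (3 of 6 tested, 0 called) at 78.8 to 160 and 37.2 to 552 CPM. The part of these levels in any result above was not tested. Bases shared by segments were not counted, so a 0 does not show that a gene was not expressed, and the sums may lack expressed genes.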

How the data were processed

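Per the labels and the methods, the authors used fastp for trimming, STAR on GRCm39 for alignment and featureCounts with the Gencode M25 annotation for read pairs, keeping 3′UTR ends of at most 500 bp. No strand option was named, so overlapping genes on opposite strands are uncertain. They deposited unnormalized counts for 52423 segments. Columns of 4 further samples were not used. Groups came from the sample titles and the 5 libraries per group are treated as separate mice. Segments were matched to GENCODE M39 (52361, the other 62 holding 0.0197% of counts and kept as rows of their own) and summed per gene. edgeR 4.0.16 in R 4.3.3 gave the main results, by TMM scaling, filterByExpr by group, a quasi-likelihood F-test and Benjamini-Hochberg correction at 0.05, and limma 3.58.1 the distal ratio, for genes with at least 50 counts on each side, segments with at least 100 unshared bp and 0.5 added to each count. All intervals are those of the edgeR fit, which holds counting error and the spread between the libraries of a group, and they cover no other error. Alternatives were DESeq2 1.42.0, limma-voom, other scalings and filters, the replicate number as a block, the most distal counted segment alone, libraries drawn down to 1606909 counts, and leaving out each library. Procedures were tested on simulated data. The members and lists were chosen with earlier results of these data known. Named were all members with counts, up to 8 called genes per pathway list by smallest adjusted p, and the 3 genes most like Prkaa2 and Acacb. Coordinates are 1-based on GRCm39 unless another build is named. Python 3.11.15 was used for the rest.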

Additional observations from a re-analysis of the deposited data

Results flagged for a closer look

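Of 42 groups of 5 values examined, member levels, segment levels and ratios among them, 1 held a library that stood apart from the other 4 by Dixon's test, whose critical value for 5 values is 0.71. The log2 ratio of Prkab2 to Prkab1 in the ASO group had a gap of 0.716 of its range, because ASO replicate 4, at a linear ratio of 97.5, lay below the other 4 treated libraries at 131 to 148 and still above every control. Chance alone flags about 1 in 20 groups.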

How the results depend on the processing

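Prkab1 passed the threshold in each of the 19 alternatives that gave it a value, with log2 fold changes from −1.53 to −1.21, and no value could be had on its most distal segment, where the count of called members became 0. Near-zero members turned direction without passing the threshold. With total counts, Prkaa2 was at −0.17, Prkab2 at −0.11, Prkag1 at −0.15 and Prkag3 at −0.053. With at least 10 counts in every library, Prkaa2 was at −0.020 and Prkag1 at −0.0053. On the most distal segment they were at −0.23 and −0.22. Each has 1 segment, so its counts were the same there, and only the rows fitted and the scaling changed. Prkaa2 was at −0.022 in libraries drawn down to the smallest total. Camkk2 turned to 0.0096 with DESeq2, 0.027 with limma-voom, 0.059 with upper quartile scaling and 0.067 in libraries drawn down. Leaving out 1 library moved Prkaa2 between −0.10 and 0.15, Prkab2 between −0.015 and 0.27, Prkag1 between −0.040 and 0.12, Prkag3 between −0.066 and 0.50, Camkk2 between −0.19 and 0.20, and Acacb between −0.49 and −0.15, and the log2 ratio of Prkag3 to Prkag1 between −0.073 and 0.43 and that of Prkag1 to Prkaa2 between −0.14 and 0.12. The distal Prkab2 segment was at 0.62 with limma-voom (adjusted p = 0.061), 0.43 with total counts (adjusted p = 0.17 from edgeR), 0.39 when most distal segments were fitted alone (adjusted p = 0.33 from edgeR) and between 0.58 and 0.89 without 1 library, while its distal shift stayed between 3.36 and 3.78. Rows called over the whole table numbered 528 higher and 1821 lower with total counts, and 322 higher and 507 lower on most distal segments, where 3 pathway genes were higher and 2 lower. Beyond what each setting changes, the cause of these moves was not tested.

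The labels give both groups the numbers 1 to 5, with nothing that ties equal numbers to each other. Deviations from the group means of equally numbered libraries correlated at −0.42 to 0.15, so they were not treated as pairs. With the replicate number as a block, 663 rows were higher and 1175 lower, Camkk2 was at 0.0012 and the distal Prkab2 segment at 0.62 (adjusted p = 0.051 from edgeR), and Prkab1 was still lower. The block also ended the calls of Adipor2 (−0.57, adjusted p = 0.11), Cpt1b (−0.55, adjusted p = 0.075) and Hlcs (−0.59, adjusted p = 0.051, all from edgeR), and that of the Prkag3 shift (adjusted p = 0.091 from limma).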
